A study of Homo sapiens with 6 samples.

Results

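Citrate links the mitochondrial tricarboxylic acid (TCA) cycle to fat synthesis in the cytosol. It is made in mitochondria by citrate synthase, leaves through a carrier of the inner membrane and is split in the cytosol into acetyl-CoA and oxaloacetate, and it can also enter a cell from outside through sodium-coupled carriers of the SLC13 family. Aconitases turn citrate into isocitrate, and isocitrate dehydrogenases turn isocitrate into 2-oxoglutarate. The 9 genes described here are 3 SLC13 carriers (SLC13A2, SLC13A3 and SLC13A5), the mitochondrial citrate carrier SLC25A1, the citrate-cleaving enzyme ACLY, citrate synthase (CS), the cytosolic aconitase ACO1 and the NADP-dependent isocitrate dehydrogenases IDH1 and IDH2. They were listed by name from 60675 counted genes because SLC13A2 had the largest rise after MTR4 knockdown, so the rise of SLC13A2 is given as a description without a test, and the other 8 genes were listed by function with results of these data known.

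The RNA-seq data came from PLC/PRF/5 cells, a human hepatocellular carcinoma (HCC) line grown in DMEM with fetal bovine serum, with 3 control libraries and 3 libraries after knockdown of MTR4 (MTR4 KD). MTR4 is an RNA helicase that feeds RNA to the nuclear exosome. The study describes RNA-seq before and after an inducible shRNA knockdown, and elsewhere uses a scramble shRNA as control. The labels give only control and MTR4 KD, so which shRNA the knockdown libraries carried and whether the controls were uninduced cells or cells with a scramble shRNA was not given in the labels. The labels do not say whether libraries of a group came from separate cultures, so p-values measure the spread between these libraries.

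The libraries held 60686786 to 72708682 reads on genes. MTR4 itself (MTREX) was at 72.2, 87.4 and 74.4 CPM (gene counts scaled to a common library size by TMM) in the control libraries and at 44.6, 48.8 and 44.1 CPM in the MTR4 KD libraries. The fit gave it a log2 fold change of -0.77 with a standard error of 0.0897 (adjusted p = 0.00641). The libraries also differed in the share of reads that aligned to more than 1 place. It was 34.7% to 37.5% in MTR4 KD replicate 3 and control replicates 1 and 3, and 14.8% to 18.2% in the other libraries. Changes of the listed genes that were tested are therefore also given within each of these sets of libraries. In control replicate 2, 392 genes with at least 10 reads were over 5 times as high as in every other library, against 6 to 65 genes in the others. All 11 hepatocyte markers that were examined passed the filter on low counts, with 3 higher (ALB, APOA1 and TTR) and 1 lower (KRT18) in MTR4 KD by an adjusted p under 0.05, against 3.6% of all tested genes in either direction. When each library was left out in turn, APOA1 stayed under this threshold in 4 of 6 cases, TTR in 3, ALB in 1 and KRT18 in 0. The summed level of all 11 markers was 22411 to 24142 CPM in control and 22727 to 24336 CPM in MTR4 KD libraries. Its largest parts were SERPINA1, with means of 10576 CPM in control and 9144 CPM in MTR4 KD libraries, and FGB, with 5850 and 6958 CPM.

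The SLC13 carriers of the plasma membrane had the lowest levels among the 9 genes. The largest change was that of SLC13A2 alone, the gene whose rise chose the list. SLC13A2 encodes the carrier NaDC1, known for taking up succinate and citrate in kidney and small intestine (ENSG00000007216, chr17:28473644-28497781 on GRCh38, protein-coding). It was counted with 82, 101 and 54 reads in control replicates 1, 2 and 3 and with 309, 348 and 344 reads in MTR4 KD replicates 1, 2 and 3. Scaled for depth, this was 1.33, 1.40 and 0.90 CPM in the control libraries and 5.04, 5.21 and 5.61 CPM in the MTR4 KD libraries. Every MTR4 KD library was above every control library, and the lowest of the 6 values was in control replicate 3. The mean was 1.21 ± 0.272 CPM in control and 5.29 ± 0.295 CPM in MTR4 KD libraries (SD, n = 3 each). The fitted change was 4.36-fold, with a 95% interval from 3.23-fold to 5.90-fold. Since this contrast chose the gene, the interval is a description, not a test, and need not hold its 95% level. The log2 difference was 2.33 within the libraries with more non-unique reads and 1.88 within those with fewer. In RNA from bulk cells, more cells that express the gene and more transcript per cell cannot be told apart.

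The rule that made SLC13A2 the largest rise took genes with a fold change over 2, an adjusted p under 0.05, a mean of at least 100 reads and groups that do not overlap, which 46 raised genes met. The next gene in that order was GSTA1, at a log2 fold change of 2.09 against 2.13 for SLC13A2. Without these conditions, 13 of the 18075 tested genes had a larger log2 fold change than SLC13A2, and 1 of these 13 had a mean of at least 100 reads.

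SLC13A5 encodes NaCT, the citrate carrier known from liver (ENSG00000141485, chr17:6684719-6713369). It had 41, 32 and 19 reads in the control libraries and 38, 40 and 47 reads in the MTR4 KD libraries. The groups overlapped, at 0.66, 0.44 and 0.32 CPM against 0.62, 0.60 and 0.77 CPM. The log2 fold change of SLC13A5 was 0.48 (SE, the standard error, 0.330, adjusted p = 0.496), with a 95% interval from -0.30 to 1.25. At this depth a change of SLC13A5 between a small fall and a rise of 2.38-fold could not be told from no change. Within the sets the log2 differences of SLC13A5 were 0.65 with more and 0.46 with fewer such reads. SLC13A3 encodes NaDC3, a dicarboxylate carrier (ENSG00000158296, chr20:46557828-46684485). It had 2, 16 and 0 reads in the control libraries and 0, 1 and 1 reads in the MTR4 KD libraries, and did not pass the filter on low counts. Its highest count was in control replicate 2, where it was among the 392 genes that stood out. No fold change is given for it. Of the other members of the family, the sulfate carrier SLC13A1 had 0 reads in all 6 libraries and SLC13A4 had 11 to 28 reads, with a log2 fold change of -0.85 (adjusted p = 0.236).

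**Figure D1:**
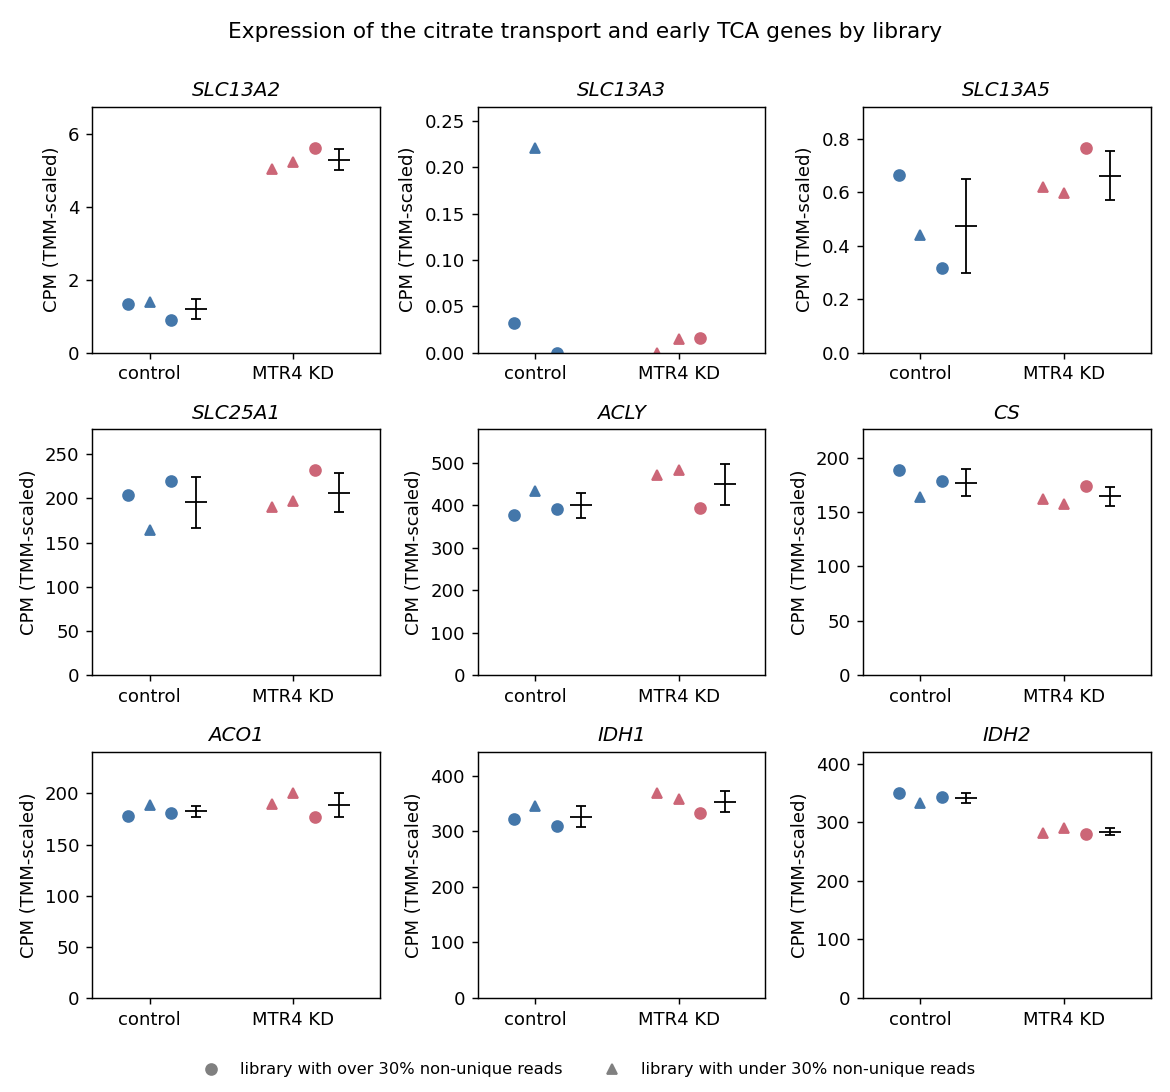
Each panel plots 1 gene, with TMM-scaled CPM on the vertical axis from 0 and a point per library (circles, libraries with over 30% non-unique reads; triangles, the others); black bars give mean ± SD of 3 libraries and are left out for SLC13A3. SLC13A2 is above its highest control value of 1.40 CPM in all MTR4 KD libraries, IDH2 is below its lowest control value of 333.2 CPM in all of them, and the groups overlap in the other 7 panels.

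The upstream sequences of SLC13A2 and SLC25A1 are shown because they lie at opposite ends of base composition among the listed genes with a window at the RefSeq gene start. The 250 bases before the RefSeq start are given 5′ to 3′ on the strand of the gene (GRCh38.p14), in lower case. Capitals mark 2 motifs on either strand. The letters TATANA are those of a TATA box and the letters GGGCGG those of a GC box. The motifs were chosen after the sequences were read.
SLC13A2, chr17:28473394-28473643, plus strand: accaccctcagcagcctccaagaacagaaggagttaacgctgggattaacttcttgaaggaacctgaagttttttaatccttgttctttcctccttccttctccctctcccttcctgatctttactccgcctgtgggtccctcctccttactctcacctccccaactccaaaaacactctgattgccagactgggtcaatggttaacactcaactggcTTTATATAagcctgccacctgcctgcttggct
SLC25A1, chr22:19178737-19178986, minus strand: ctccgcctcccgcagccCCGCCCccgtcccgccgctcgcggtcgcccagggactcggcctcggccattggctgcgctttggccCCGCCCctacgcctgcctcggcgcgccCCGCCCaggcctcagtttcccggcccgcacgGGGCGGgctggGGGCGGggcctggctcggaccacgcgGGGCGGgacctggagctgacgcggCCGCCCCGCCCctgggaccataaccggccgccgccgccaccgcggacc

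The SLC13A2 window held 49.2% G and C and 2 CG steps, against a median of 58.0% and 11 over all 35116 windows. It held the TATANA letters as overlapping matches from 32 to 25 bases before the start, and no GC box letters. The letters TATANA were present in 17.7% of all windows. The listed genes with a window were 8, with 10 windows in all because IDH1 and ACLY have more than 1 annotated start. Among these 10 windows, the TATA box letters occurred in that of SLC13A2 and in no other. The SLC25A1 window held 81.6% G and C, 37 CG steps and GGGCGG 8 times. GGGCGG was present in 8 of the 10 windows, those of ACLY, ACO1, CS, IDH1, SLC13A5 and SLC25A1, and in 42.6% of all windows. The windows of IDH2 and ACLY and 1 window of IDH1 belong to starts inside the gene as RefSeq bounds it. That of IDH2 held neither motif. The ACLY windows overlap, so some of their GC box letters are the same sites.

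The genes next to SLC13A2 had low counts. On one side, 5201 bases away, the pseudogene RPS7P1 had 30 to 80 reads, with a log2 fold change of 0.01 (adjusted p = 0.993). On the other side, 8567 bases away, FOXN1 had 0 or 1 read in each library. Of the markers of kidney proximal tubule and enterocytes, tissues in which SLC13A2 is known, 6 of 11 passed the filter on low counts and 0 had an adjusted p under 0.05. In the fit with the library set, 1 was lower, LRP2, against 1944 lower among all 18075 tested genes. It had 350 to 903 reads in control and 302 to 475 reads in MTR4 KD libraries. Its log2 fold change was -0.56 with the covariate (adjusted p = 0.00295) and -0.33 without it (adjusted p = 0.626). SLC34A1, the 1 gene among these with an unadjusted p under 0.05 in edgeR's test, had 15 to 41 reads in control and 42 to 72 reads in MTR4 KD libraries (edgeR adjusted p = 0.179). Of the genes that did not pass the filter, SLC22A6 had 0 reads, and CUBN had 12 reads in control replicate 2 and 0 to 2 elsewhere. SI had 0 to 2 reads in control and 3 to 17 reads in MTR4 KD libraries. LCT had 0 to 2 and 2 to 4 reads, and FABP2 had 0 and 0 to 3 reads, in the same order. The villin gene VIL1, at 266.6 CPM in control and 259.2 CPM in MTR4 KD libraries, made up most of the list's sum.

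Among 13071 other genes with a symbol and a mean of at least 1 CPM, the profile over the 6 libraries most like that of SLC13A2 was that of ADH1B. The measure was the root mean square difference of log2 CPM, each gene taken relative to its own mean. It was 0.132 for ADH1B, 0.234 for GSTA1, 0.253 for PCYT1B, 0.268 for FER1L6 and 0.282 for GSTA2, against a median of 1.10 over all genes compared. ADH1B was at 1.49 CPM in control and 5.90 CPM in MTR4 KD libraries. The measure includes the difference between control and MTR4 KD that chose SLC13A2, so it favors genes with a rise of similar size. In the same order, the log2 fold changes of these genes were 1.98, 2.09, 2.01, 2.06 and 1.70. Shared regulation was not tested.

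The carrier and the enzyme that bring mitochondrial citrate to the cytosol were expressed at far higher levels than the SLC13 genes. SLC25A1 (ENSG00000100075, chr22:19175581-19178736) exports citrate from mitochondria. It was at 203.8, 163.7 and 219.5 CPM in the control libraries and 190.6, 197.0 and 231.5 CPM in the MTR4 KD libraries, and the groups overlapped. The log2 fold change of SLC25A1 was 0.08 (SE 0.124, adjusted p = 0.793), with a 95% interval from -0.21 to 0.37. The log2 difference was 0.13 within the libraries rich in non-unique reads and 0.24 within the others. With the set as a covariate the log2 fold change was 0.19 (adjusted p = 0.0128).

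ACLY (ENSG00000131473, chr17:41866917-41930545), ATP citrate lyase, splits citrate in the cytosol. It was at 375.7, 432.7 and 390.2 CPM in the control libraries and 470.8, 481.4 and 393.8 CPM in the MTR4 KD libraries. Control replicate 2 was above MTR4 KD replicate 3, so the groups overlapped. The log2 fold change was 0.17 (SE 0.0954, adjusted p = 0.401), with a 95% interval from -0.06 to 0.39. Within the sets the log2 differences were 0.04 and 0.14. The number of ACLY reads per SLC25A1 read followed the sets rather than the conditions. It was 1.84 and 1.78 in control and 1.70 in MTR4 KD among the libraries with more non-unique reads, and 2.64 in control and 2.47 and 2.44 in MTR4 KD among the others.

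Of the enzymes from citrate to 2-oxoglutarate, IDH2 fell and the other genes had no adjusted p under 0.05. IDH2 (ENSG00000182054, chr15:90083045-90102468) encodes the mitochondrial NADP-dependent isocitrate dehydrogenase. It was at 350.2, 333.2 and 343.8 CPM in the control libraries and 281.6, 290.5 and 280.3 CPM in the MTR4 KD libraries. Every MTR4 KD library was below every control library. The mean was 342.4 ± 8.61 CPM in control and 284.1 ± 5.56 CPM in MTR4 KD libraries (SD, n = 3 each). By the fit IDH2 fell by 17.0%, or -0.27 on the log2 scale (SE 0.0534, adjusted p = 0.0425). The log2 difference was -0.31 within the libraries with more and -0.22 within those with fewer non-unique reads. With the set as a covariate the adjusted p was 0.000672, and with the replicate number as a block it was 0.0607. Relative to ACTB, which shifted the median of all tested genes from 0.01 to 0.19 on the log2 scale, the log2 fold change of IDH2 was -0.08 (adjusted p = 0.559). Without control replicate 2 the adjusted p was 0.0459, and without any other library it lay between 0.0713 and 0.241.

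IDH1 (ENSG00000138413, chr2:208236227-208255071) encodes the isocitrate dehydrogenase of cytosol and peroxisomes. It was at 322.6, 345.9 and 308.9 CPM in the control libraries and 368.6, 358.4 and 332.0 CPM in the MTR4 KD libraries. Control replicate 2 was above MTR4 KD replicate 3. The log2 fold change was 0.12 (SE 0.0695, adjusted p = 0.429), with a 95% interval from -0.05 to 0.28, and the log2 difference of IDH1 was 0.07 within both sets. The ratio of IDH2 to IDH1 reads does not depend on how libraries are scaled. It was 1.09, 0.963 and 1.11 in the control libraries and 0.764, 0.811 and 0.844 in the MTR4 KD libraries, and the groups did not overlap. The mean was 1.05 ± 0.0797 in control and 0.806 ± 0.0405 in MTR4 KD libraries (SD, n = 3 each), a difference of -23.5%. A two-sided exact permutation test over the 6 libraries gave p = 0.1, the smallest that 3 against 3 allows. The ratio was 1.10 in control and 0.844 in MTR4 KD within the libraries with more non-unique reads, and 0.963 and 0.787 within those with fewer.

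**Figure D2:**
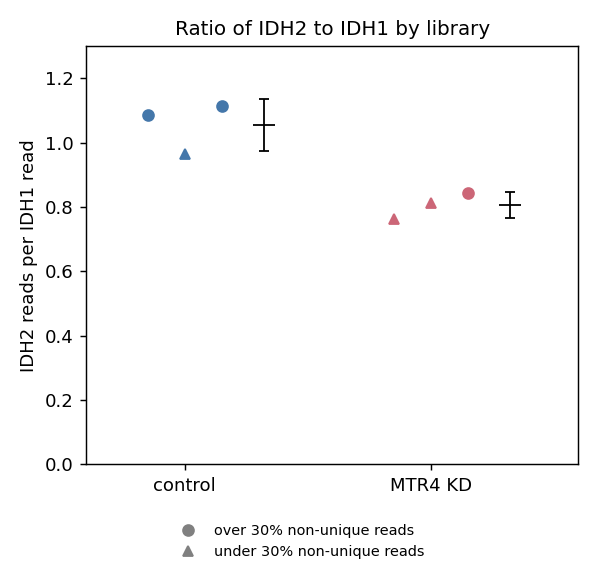
The vertical axis gives IDH2 reads per IDH1 read from 0, with a point per library (circles, over 30% non-unique reads; triangles, under 30%) and black bars for mean ± SD of 3 libraries. All MTR4 KD libraries (0.764 to 0.844) lie below all control libraries (0.963 to 1.11).

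CS (ENSG00000062485, chr12:56271699-56300330) joins acetyl-CoA and oxaloacetate to citrate. It was at 188.1, 163.8 and 178.3 CPM in the control libraries and 161.5, 157.7 and 174.0 CPM in the MTR4 KD libraries, and the groups overlapped. The log2 fold change was -0.10 (SE 0.0741, adjusted p = 0.509), with a 95% interval from -0.28 to 0.07, and it was 0.09 relative to ACTB. Within the sets the log2 differences of CS were -0.07 and -0.04. Reads are harder to assign to CS than to the other listed genes. Of the 50-base stretches of its canonical transcript, 22.1% also occur in transcripts of other annotated genes. For SLC13A2, SLC13A3 and SLC25A1 none did, and for the other 5 genes 0.568% to 7.64% did. ACO1 (ENSG00000122729, chr9:32384643-32454769) encodes cytosolic aconitase, known also as the iron regulatory protein IRP1. It was at 178.2, 188.3 and 180.7 CPM in the control libraries and 190.0, 200.3 and 176.7 CPM in the MTR4 KD libraries. The log2 fold change was 0.05 (SE 0.0666, adjusted p = 0.734), with a 95% interval from -0.10 to 0.21. Within the sets the log2 differences of ACO1 had opposite signs, at -0.02 in the set rich in non-unique reads and 0.05 in the other. The 95% interval bounds a change of ACO1 between a fold of 0.930 and of 1.15.

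Leaving aside SLC13A2, which was chosen by its fold change and adjusted p in this contrast, 1 of the other 7 listed genes that were tested, IDH2, had an adjusted p under 0.05. Of all tested genes, 1.48% were higher and 2.12% lower by that rule, 3.6% in all. Relative to ACTB the split over all tested genes turned from 267 higher and 383 lower to 616 higher and 169 lower. IDH2 was also the 1 of these 7 genes whose groups did not overlap, against 24.7% of all tested genes. None of the 7 had a fold over 2 with an adjusted p under 0.05, against 0.83% of all tested genes. With the library set as a covariate SLC25A1 also had an adjusted p under 0.05. In that fit 3649 of the 18075 tested genes did, 1705 higher and 1944 lower.

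**Figure D3:**
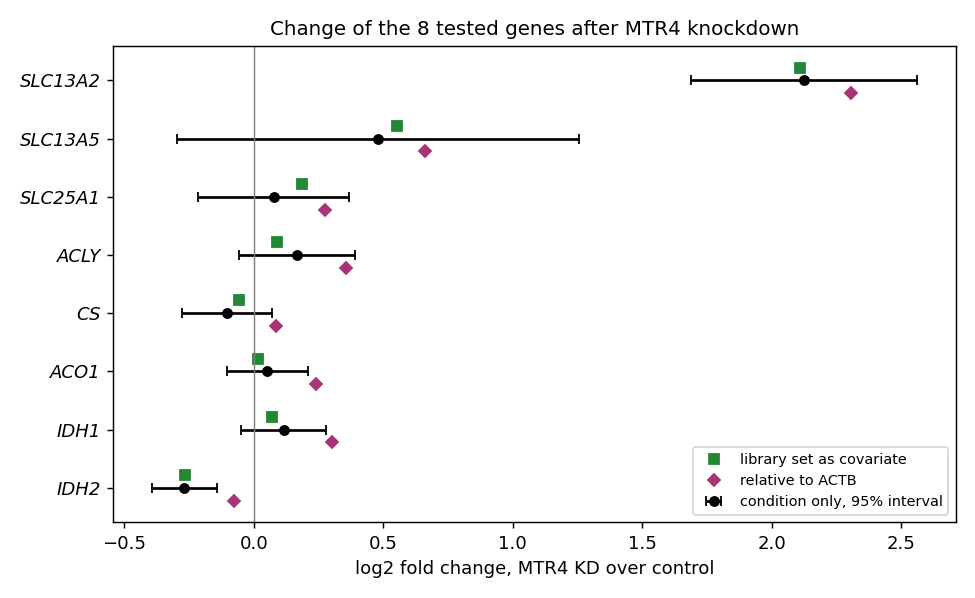
The horizontal axis gives the log2 fold change of MTR4 KD over control for the 8 tested genes, with 95% intervals from the fit with condition only (black), and the values with the library set as a covariate (green squares) and relative to ACTB (purple diamonds). SLC13A2, shown as a description since its rise chose it, lies at 2.13; of the other 7 genes the interval of IDH2 (-0.39 to -0.14) leaves out 0 and those of 6 include it.

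Per kilobase of the canonical transcript, the order of the levels in the control libraries was IDH1, IDH2, SLC25A1, ACLY, CS, ACO1, SLC13A2, SLC13A5 and SLC13A3. IDH1 was at 140.6, IDH2 at 128.8, SLC25A1 at 126.4, ACLY at 93.1, CS at 60.6 and ACO1 at 24.5 CPM per kilobase. SLC13A2 was at 0.511, SLC13A5 at 0.147 and SLC13A3 at 0.0209 CPM per kilobase. The ranges of IDH2 and SLC25A1 overlapped, and those of no other neighbours in this order did. In the MTR4 KD libraries SLC25A1 stood before IDH2, with 133.3 against 106.9 CPM per kilobase, and SLC13A2 reached 2.24 CPM per kilobase, still below ACO1 at 25.4. There the ranges of IDH1 and SLC25A1 and those of IDH2 and ACLY overlapped. By the mean of all 6 libraries, IDH1 was higher per kilobase than 94.7% of the tested genes and SLC13A2 higher than 32.3%. With the length of all annotated exons in place of the canonical transcript, IDH2 came first and IDH1 after ACLY in the control libraries, and the order of the last 5 genes was the same.

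**Figure D4:**
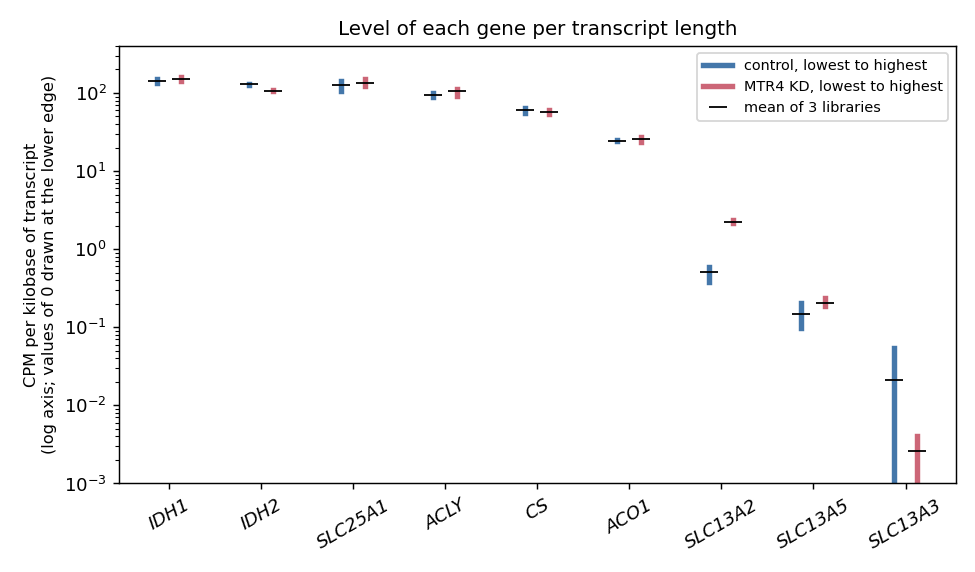
The vertical axis (log scale) gives CPM per kilobase of the canonical transcript; colored bars run from the lowest to the highest of 3 libraries in control and MTR4 KD, with the mean as a black line and values of 0 drawn at the lower edge. In the MTR4 KD libraries SLC13A2 lies at 2.24, between ACO1 at 25.4 and SLC13A5 at 0.205.

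The other genes of the pathway were taken from fixed lists. Of 16 other TCA cycle genes, 0 had an adjusted p under 0.05 in edgeR's test, with a median log2 fold change of 0.05 against 0.01 over all tested genes. By unadjusted p 3 were under 0.05, all higher. With the library set as a covariate 3 were higher, among them DLD (adjusted p = 0.0499) and SUCLG1 (adjusted p = 0.0240), and 0 were lower. Over all 18075 tested genes that fit called 1705 higher and 1944 lower. DESeq2's Wald test called 0 of the 16.

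Of 13 genes for the entry of pyruvate into mitochondria, 1 was higher and 3 were lower, against 1.48% and 2.12% of all tested genes. Relative to ACTB the split turned to 2 higher (PDK2 and MPC2) and 1 lower (PDK1), and without a filter on low counts it was 0 higher and 3 lower. The kinases of this list switch off pyruvate dehydrogenase, which makes the acetyl-CoA that citrate synthase uses. PDK1 fell from 48.9 to 29.3 CPM (log2 fold change -0.74, adjusted p = 0.00317) and PDK4 fell from 49.9 to 36.5 CPM (-0.45, adjusted p = 0.0122), whereas PDK2 rose from 13.5 to 17.9 CPM (0.40, adjusted p = 0.0369). PC, pyruvate carboxylase, which makes the oxaloacetate that joins acetyl-CoA, fell from 98.7 to 75.3 CPM (-0.39, adjusted p = 0.0306). The median of the list was -0.06. PDK1 kept an adjusted p under 0.05 when each of the 6 libraries was left out, PDK4 when control replicate 2 or MTR4 KD replicate 3 was, PC when control replicate 2 was, and PDK2 in no case, with an adjusted p of up to 0.158.

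The median over 11 other carriers and enzymes of the malate and aspartate shuttles was -0.07. Of these, 1 was lower and 0 were higher, against 2.12% and 1.48% of all tested genes. This gene was GOT1, the cytosolic aspartate aminotransferase, which went from 80.9 to 59.1 CPM (log2 fold change -0.45, adjusted p = 0.0120). The adjusted p of GOT1 stayed under 0.05 without control replicate 2 or MTR4 KD replicate 3 and reached 0.0934 without another library. Relative to ACTB the count turned to 1 higher, SLC25A13, and 0 lower, with GOT1 at -0.26. The median over 12 genes for the use of cytosolic citrate and acetyl-CoA was -0.06. Among these 12, 1 was lower and 0 were higher, against the same shares of all tested genes. This gene was SCD, the desaturase that makes monounsaturated fatty acids, which went from 2734 to 2094 CPM (log2 fold change -0.39, adjusted p = 0.0435). Without any 1 library the adjusted p of SCD lay between 0.0526 and 0.154. Relative to ACTB the count turned to 1 higher, ACSS2, and 0 lower, with SCD at -0.20. The fatty acid synthase FASN was at 819.3 CPM in control and 775.5 CPM in MTR4 KD libraries (log2 fold change -0.08, adjusted p = 0.726). With the library set as a covariate, 3 were higher and 4 lower for pyruvate entry. For the shuttles 1 was higher and 2 lower, and for citrate use 2 were higher and 3 lower. Over all 18075 tested genes that fit called 1705 higher and 1944 lower.

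**Figure D5:**
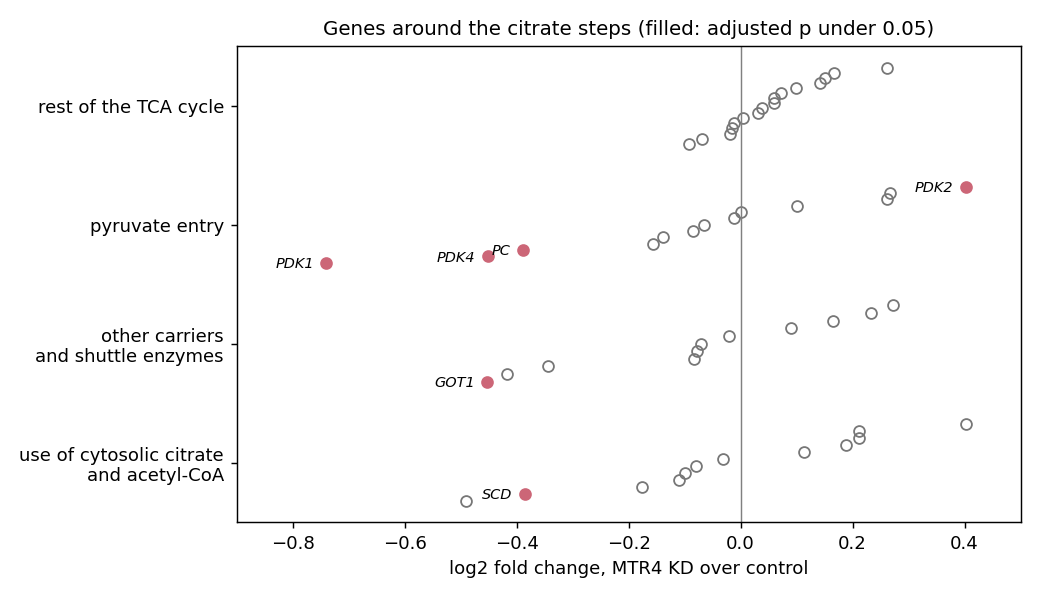
The horizontal axis gives the log2 fold change of MTR4 KD over control, with a point per tested gene in 4 lists around the listed genes, filled where the adjusted p was under 0.05. The filled points are PDK1, PDK4, PC and PDK2 for pyruvate entry, GOT1 for the shuttles and SCD for citrate use, and none for the rest of the TCA cycle.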

How the data were processed

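The values the authors deposited are counts of reads per Ensembl gene in each of the 6 libraries, not normalized, followed by 5 classes of reads not assigned to a gene. The submitters' processing notes name HISAT2 2.1.0, HTSeq, DESeq2 and GRCh38, and the strand setting is not given in the sources used here. HTSeq by default leaves out reads with more than 1 alignment and reads on overlapping genes. The unassigned classes, of which non-unique reads were the largest, stayed out of library sizes and tests.

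Symbols and transcript lengths came from GENCODE 44 lifted to GRCh37, which held 56959 of the 60675 identifiers and named 42395. Positions and upstream sequences came from RefSeq (GRCh38.p14). The 50-base stretches were searched on both strands of the GENCODE transcripts. Genes were filtered with filterByExpr (minimum count 10), scaled by TMM and tested with edgeR 4.0.16 (R 4.3.3, quasi-likelihood, condition as the only term, two-sided, Benjamini-Hochberg over all 18075 tested genes). The procedure was tested on simulated data. Standard errors were derived from the quasi-likelihood F statistic. DESeq2 1.42.0 and limma 3.58.1 served for alternatives, and Python 3.11.15 for tables and plots.

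The listed genes, the pathway lists and the library sets (over or under 30% non-unique reads, read from the files) were chosen with earlier results of these data known. All 9 genes are given. Of the other lists, at most 3 genes per direction with an adjusted p under 0.05 were to be named. Genes beyond this rule were named after their values were seen. They were DLD, SUCLG1, MPC2, SLC25A13, ACSS2, FASN, LRP2, SLC34A1, SLC22A6, CUBN, SI, LCT, FABP2, VIL1, SERPINA1 and FGB. The neighbours and the like profiles follow fixed rules.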

Additional observations from a re-analysis of the deposited data

How the results depend on the processing

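Each result was recomputed under 15 alternatives, of which 6 left out a library. SLC13A2 was higher and MTR4 lower in MTR4 KD in all 15, and the adjusted p of MTR4 stayed under 0.05. When a library was left out, the log2 fold changes were 1.95 to 2.24 for SLC13A2 and -0.82 to -0.68 for MTR4. The rise of SLC13A2 chose it in these same libraries, so its direction was largely set in advance and is not a check. IDH2 was lower in all 15 and under the threshold in 6, with log2 fold changes of -0.26 (adjusted p = 0.0544) with total counts, -0.078 (0.559) relative to ACTB, -0.28 (0.0816) without a filter and -0.27 (0.0607) with the replicate block, and -0.29 to -0.25 when a library was left out. SLC25A1 was 0.19 with the library set as a covariate (adjusted p = 0.0128) and -0.041 to 0.17 when a library was left out, with -0.041 without control replicate 2 and -0.013 without MTR4 KD replicate 3. CS was 0.087 relative to ACTB. The cause was not tested.

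The number of listed genes with an adjusted p under 0.05 was 2, with SLC13A2 counted although it was chosen by this contrast. This number became 1 with total counts, relative to ACTB, without a filter and with the replicate block. It became 3 with the library set as a covariate, and 1 to 2 when a library was left out. Over all tested genes it was 650, and it became 1363 with DESeq2's Wald test, 3649 with the library set and 137 to 803 when a library was left out. Relative to ACTB, 616 were higher and 169 lower, against 267 and 383. Past both thresholds the 150 genes became 227, 347 and 73 to 180.

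For pyruvate entry the count became 7 with the library set and 1 to 4 when a library was left out. For the shuttles it became 2 without a filter and with a minimum of 1 CPM, 3 with DESeq2's Wald test and with the library set, and 0 to 2 when a library was left out. For citrate use it became 0 with total counts, 2 without a filter, with DESeq2's Wald test and with the replicate block, 5 with the library set and 0 when any library was left out. For the rest of the TCA cycle it became 3 with the library set.

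Whether the same replicate numbers pair the libraries was not given in the labels. Correlations across genes of same-numbered deviations were -0.24, 0.32 and 0.35, against -0.49 to 0.36 for libraries with different numbers. Control replicate 1 correlated best with MTR4 KD replicate 3. The correlations were positive within the sets by non-unique reads and negative between them, so they cannot decide whether the numbers pair libraries. With the replicate block no listed gene other than IDH2 changed its side of the threshold. SLC13A3 could not be fitted after the filter on low counts, and SLC13A5 not with a minimum of 1 CPM. At 19 to 47 reads, SLC13A5 is limited by depth.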
